A study of Mus musculus with 6 samples.

Results

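The Ly6 genes encode small cell surface proteins that are widely used to tell blood cell types apart. The 7 genes described here, Ly6a, Ly6c1, Ly6c2, Ly6d, Ly6e, Ly6g and Ly6k, were taken by symbol from the 21233 genes of the count table. The set was drawn up because Ly6g nearly disappeared and Ly6a fell with sorafenib in these same libraries, so the differences of the 7 genes between control and sorafenib are given as a description, with no p-value. The libraries were made from total RNA of mouse Th9 cells, a class of CD4 helper T cell known for secreting interleukin 9. There were 3 libraries of control cells, which were not given sorafenib (a vehicle is not named), and 3 of cells treated with sorafenib, an inhibitor of RAF kinases and several receptor tyrosine kinases. The sources used here do not give the strain, age, genotype, dose, treatment time or the way the Th9 cells were obtained. Replicates carry a number and no statement of a separate culture or animal, so errors and p-values cover only the spread between these libraries, which may be technical.

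A Ly6 protein is a single small domain held in shape by disulfide bonds, and most family members sit on the outer face of the plasma membrane on a glycosylphosphatidylinositol (GPI) anchor instead of a membrane-spanning segment. Several members are switched on by interferons, and Ly6a, Ly6c and Ly6e proteins are found on T cells, where their levels change with activation and memory. Ly6g protein is the classical surface marker of mouse neutrophils. Most of the genes lie side by side in one cluster on mouse chromosome 15, and their sequences are alike enough for short reads to fit more than one of them.

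Total counts per library were 36981476 to 38126521. The defining T cell genes were all present: Cd3e stood at 207 ± 14.0 CPM in control and 167 ± 5.45 CPM in sorafenib libraries and Cd4 at 475 ± 35.9 and 495 ± 10.7 CPM (mean ± SD, n = 3; CPM are counts scaled to library size with TMM factors, which even out differences in library make-up). Il9 stood at 192 ± 18.8 and 266 ± 15.4 CPM. One control library, replicate 2, lay farther from its group than the others, with a root mean square deviation from the group mean of 0.232 log2 units over all tested genes, against 0.118 to 0.177 in the other 5 libraries. Results that rest on it are given with and without it. Levels of different genes are compared below in FPKM, the authors' counts scaled to gene length and library size, and each gene is compared between groups in FPKM or CPM as stated.

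Ly6a, which encodes the stem cell antigen Sca-1, was the most abundant of the 7 genes and was lower in every sorafenib library. Its FPKM was 119, 132 and 125 in control replicates 1 to 3 and 68.3, 82.3 and 79.4 in sorafenib replicates 1 to 3. The groups did not overlap, and the lowest control library was well above the highest sorafenib library. The group means were 125 ± 6.25 and 76.6 ± 7.39 FPKM (SD, n = 3), a ratio of 1.63. On TMM-scaled CPM the means were 129 ± 12.7 and 74.7 ± 6.79, and the log2 fold change, always given as sorafenib minus control, was -0.79 ± 0.09 (SE). Without control replicate 2, the library with the most Ly6a, it was -0.71. In RNA from a whole culture, fewer cells that carry a transcript and less of it per cell cannot be told apart.

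Ly6e, which encodes the thymic shared antigen and is itself induced by interferon, was the next most abundant member and stayed within the spread of the libraries. Its FPKM was 31.4, 29.3 and 33.2 in the control libraries and 33.03, 33.3 and 34.2 in the sorafenib libraries, and the groups overlapped. In CPM the means were 107 ± 4.0 in control and 108 ± 1.85 in sorafenib cells, with a log2 fold change of 0.02 ± 0.06 (SE). The FPKM of Ly6a relative to Ly6e was therefore 3.80, 4.49 and 3.76 in the control libraries and 2.07, 2.47 and 2.32 in the sorafenib libraries. These ratios, which do not depend on how a library is scaled, did not overlap between the groups. The sorafenib libraries still held more Ly6a than Ly6e per unit of length.

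Ly6c1, one of the genes that encode the Ly-6C antigen, fell more than Ly6a. Its FPKM was 2.97, 2.96 and 3.52 in the control libraries and 0.593, 1.38 and 1.17 in the sorafenib libraries. All 3 sorafenib libraries were below all 3 control libraries, and sorafenib replicate 1 was the lowest. The counts behind these values were 185, 186 and 224 in control and 38, 86 and 75 in sorafenib cells. The log2 fold change was -1.67 ± 0.26 (SE), and it was -1.39 without sorafenib replicate 1. Relative to Ly6a, the FPKM of Ly6c1 was 2.25% to 2.82% in the control libraries and 0.869% to 1.67% in the sorafenib libraries, so the fall of Ly6c1 was steeper than that of Ly6a in each sorafenib library against every control library.

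Ly6c2, the close relative of Ly6c1 that carries the Ly-6C antigen in many strains, was close to absent. It had 0, 1 and 0 counts in the control libraries and 0, 1 and 1 in the sorafenib libraries. All these counts are below 3, the floor used here for a count of 0, which stood for 0.0766 to 0.0871 CPM, so no fold is given. The floor covers counting error only.

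Ly6g showed the widest gap of the 7 genes. It had 125, 120 and 125 counts in control replicates 1 to 3 and 1, 2 and 0 counts in sorafenib replicates 1 to 3. The control libraries were tightly grouped at 3.61, 3.43 and 3.53 FPKM, and the sorafenib libraries were at 0.0281, 0.0575 and 0 FPKM. Summed over the libraries, the 370 control counts and 3 sorafenib counts gave a ratio of 131 per effective library size, with an exact 95% interval of 44.6 to 640 that covers counting error only. The interval is wide because only 3 counts stand behind the sorafenib value. For the same reason the fitted log2 fold change of Ly6g, -6.86, moved to -7.71 without sorafenib replicate 2 and to -6.33 without sorafenib replicate 3, and it is no bound. Control replicate 2, which stood apart over all genes, had 120 of the 370 control counts of Ly6g.

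**Figure D1:**
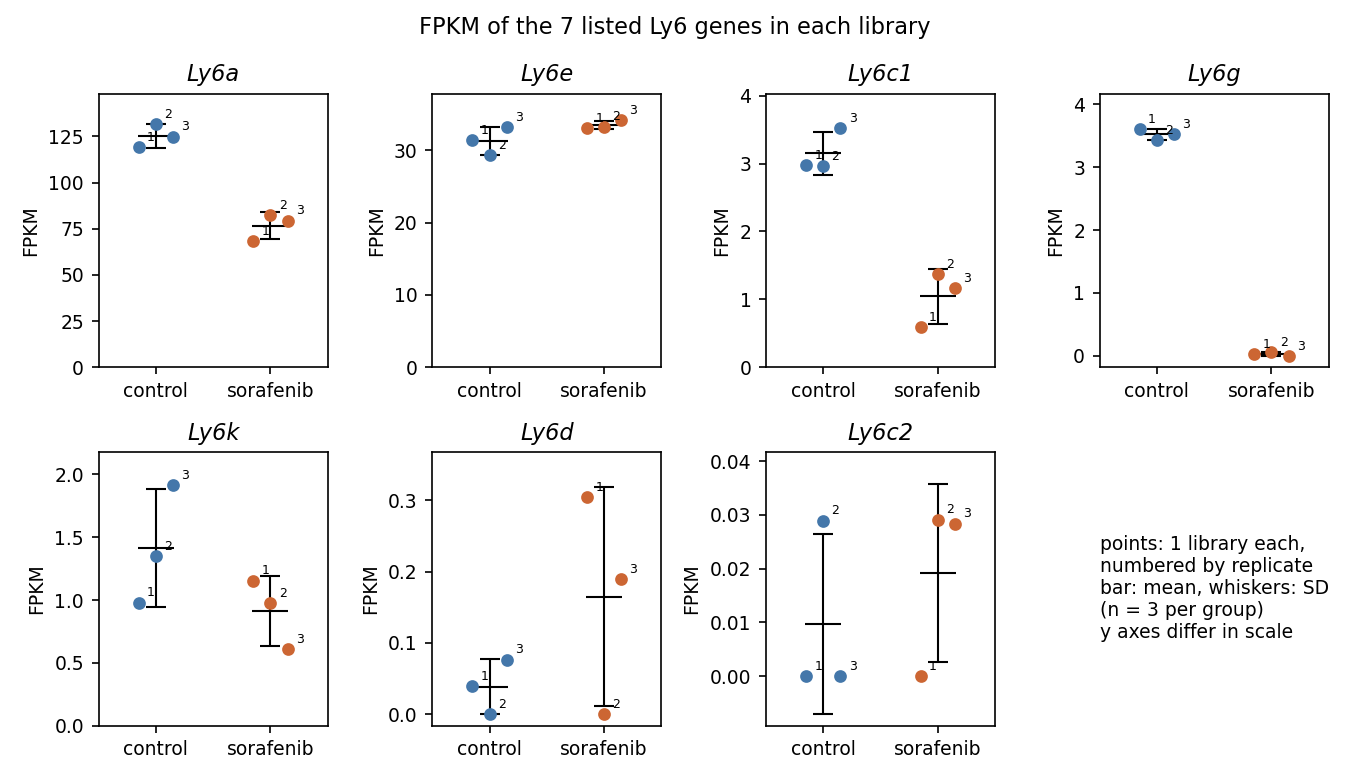
FPKM of each of the 7 Ly6 genes (1 panel each, linear axes that differ in scale) in the 3 control and 3 sorafenib libraries, as points numbered by replicate with the mean and SD. Ly6a, Ly6c1 and Ly6g separate the groups, Ly6e lies at about the same level in all 6 libraries, and Ly6d and Ly6c2 rest on a few counts.

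The DNA just before the start sites is shown for Ly6c1, Ly6c2 and Ly6g, the 3 of the 7 genes found in the RefSeq promoter table, because Ly6c1 and Ly6g were transcribed in control cells and were both lower with sorafenib, while their relative Ly6c2 had almost no counts. Each is the 250 bases before the first listed start, 5′ to 3′ on the gene's strand, in build GRCm38.p6, which is not the GRCm39 build named for the counts. Capitals mark the letters TATAAA.
Ly6c1 (chr15:75048838-75049087, minus strand): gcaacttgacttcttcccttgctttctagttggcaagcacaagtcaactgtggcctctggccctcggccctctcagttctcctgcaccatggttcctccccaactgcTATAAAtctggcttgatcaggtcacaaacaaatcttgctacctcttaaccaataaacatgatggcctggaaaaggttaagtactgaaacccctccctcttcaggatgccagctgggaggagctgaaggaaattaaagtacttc
Ly6c2 (chr15:75111972-75112221, minus strand): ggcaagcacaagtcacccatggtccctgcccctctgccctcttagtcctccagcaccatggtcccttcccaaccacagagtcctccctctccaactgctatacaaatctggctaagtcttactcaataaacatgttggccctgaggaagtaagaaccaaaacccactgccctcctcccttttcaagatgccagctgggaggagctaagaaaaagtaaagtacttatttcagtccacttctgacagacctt
Ly6g (chr15:75155011-75155260, plus strand): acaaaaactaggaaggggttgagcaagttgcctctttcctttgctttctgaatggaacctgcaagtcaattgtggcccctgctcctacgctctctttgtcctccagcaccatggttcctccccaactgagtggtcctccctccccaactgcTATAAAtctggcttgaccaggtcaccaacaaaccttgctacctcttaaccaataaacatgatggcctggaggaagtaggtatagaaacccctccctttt
In the best local alignment, the Ly6c1 and Ly6g windows matched at 75.1% of 229 aligned positions and shared an unbroken run of 37 bases. The Ly6c1 and Ly6c2 windows matched at 72.2% of 227 positions, with a longest shared run of 20 bases. TATAAA was present in the Ly6c1 and Ly6g windows, 143 and 99 bases before the listed start, and in 12.4% of 32851 windows of this length over all genes, on either strand. The interferon-related letters TTCNNNGAA (the GAS element, found in 7.02% of all windows) and the core of the ISRE, GAAA repeated after a gap of 2 bases (2.98%), and the AP-1 letters TGANTCA (6.75%) had no match in any of the 3 windows, again on both strands. Each of the 3 genes also has a second listed start, whose window is not shown. There TATAAA was found for Ly6g and not for Ly6c1 or Ly6c2. The second windows of Ly6c1 and Ly6c2 matched at 77.8% of 135 positions, and those of Ly6c1 and Ly6g at 82.6% of 92. These are matches of letters only, in windows whose listed starts may not be those used in Th9 cells.

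Near-identical stretches between the genes limit how far reads can be assigned, and they were counted in the GENCODE M21 transcripts, also of GRCm38. Of all stretches of 100 bases, 10.1% in Ly6c1 transcripts and 1.45% in Ly6a transcripts also occurred in another gene, in both cases a Ly6 relative, and at 50 bases the shares were 32.8% and 19%. Ly6g had no shared stretch of 100 bases and 0.448% shared stretches of 50 bases. Ly6e and Ly6d shared none at either length. Ly6k shared 18.5% of its 100-base stretches with 1 gene whose symbol does not begin with Ly6. By these shares, the separate values of Ly6a, Ly6c1 and Ly6c2 are less certain than those of Ly6g and Ly6e. The sources used here do not say how reads that match several genes were treated. Ly6a2, Ly6g2 and Ly6m had no transcript under these symbols in GENCODE M21. Stretches shared with them, also by Ly6g, could be missed unless they go under other symbols there. Summed over the 6 Ly6 genes of the table from Ly6i to Ly6g, where reads moving between them make no difference, counts were 4739, 5256 and 5105 in the control libraries and 2657, 3160 and 3116 in the sorafenib libraries. Reads shared with genes outside these 6 could still change the sum. Ly6c2 transcripts shared 14.5% of their 50-base stretches, with 538 genes, and 5.81% of their 100-base stretches, with Ly6c1 only. Ly6a made up most of this sum. Without Ly6a it was 8.74 to 9.88 CPM in control and 1.36 to 2.58 CPM in sorafenib libraries, and neither sum overlapped between the groups.

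The remaining 2 genes were low. Ly6k, known mainly from the testis, where its protein is needed for sperm to migrate in the oviduct, had 28, 39 and 56 counts in control and 34, 28 and 18 counts in sorafenib libraries. The groups overlapped, with means of 1.41 ± 0.471 and 0.914 ± 0.277 FPKM and a log2 fold change of -0.71 ± 0.39 (SE). Ly6d, which marks lymphoid progenitors that turn to the B cell fate, had 1, 0 and 2 counts in control and 8, 0 and 5 counts in sorafenib libraries. Its 3 control counts against 13 sorafenib counts gave a sorafenib to control ratio of 4.07 (exact 95% interval 1.12 to 22.3, counting error only), but the groups overlapped because 1 library of each had none.

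By mean FPKM, the order in control cells was Ly6a, Ly6e, Ly6g, Ly6c1, Ly6k, Ly6d and Ly6c2. Ly6g and Ly6c1, at 3.52 and 3.15 FPKM, overlapped, as did Ly6d and Ly6c2. The order in sorafenib cells was Ly6a, Ly6e, Ly6c1, Ly6k, Ly6d, Ly6g and Ly6c2. There Ly6c1 and Ly6k, at 1.05 and 0.914 FPKM, overlapped, and the last 3 overlapped from one to the next. Ly6g thus moved from the third to the sixth place. The 7 genes summed to 158, 169 and 167 FPKM in the control libraries and 103, 118 and 116 FPKM in the sorafenib libraries. Ly6a made up 76.03 ± 1.74% of this sum in control and 68.2 ± 1.90% in sorafenib cells, and Ly6e made up 19.03 ± 1.42% and 29.9 ± 1.89% (SD, n = 3). Neither share overlapped between the groups.

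**Figure D2:**
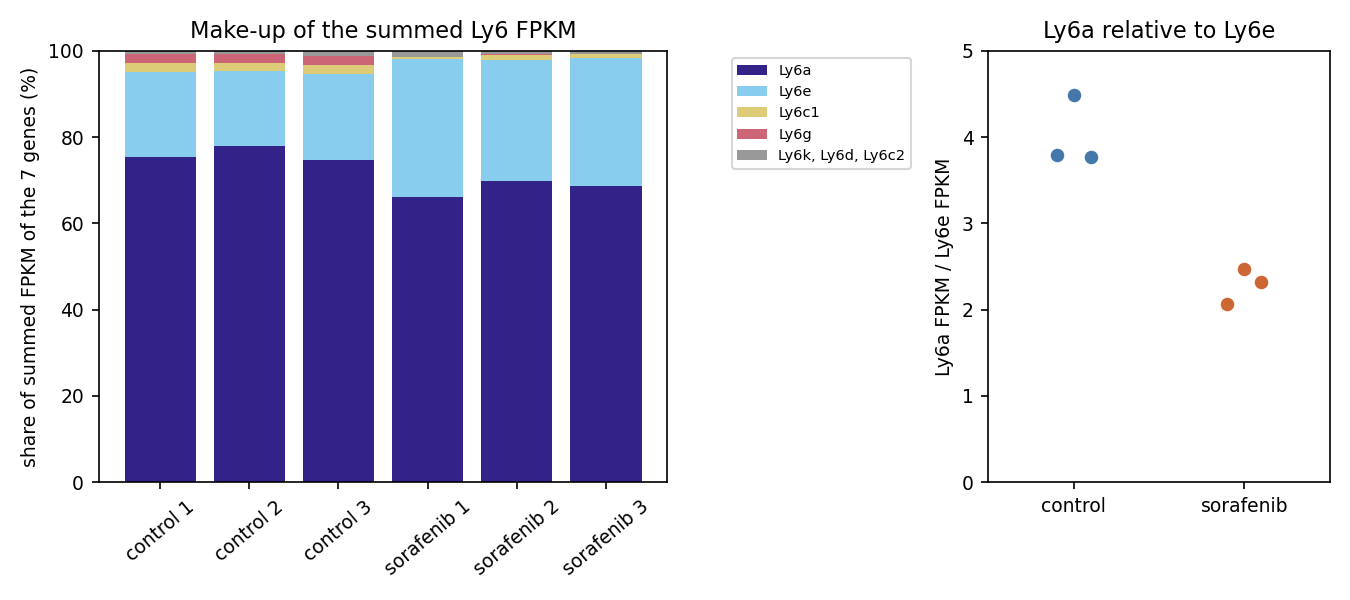
Left, share of the summed FPKM of the 7 Ly6 genes held by each gene in each library (stacked bars, percent); right, FPKM of Ly6a divided by that of Ly6e, with 1 point per library. Ly6e takes a larger share in the 3 sorafenib libraries, and the ratio lies between 3.76 and 4.49 in control and between 2.07 and 2.47 in sorafenib libraries.

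Of the 7 genes, 5 passed the filter on low counts and entered the fit over all genes, and Ly6c2 and Ly6d did not. In that fit 17.9% of 13255 genes were called at an adjusted p under 0.05, 8.51% as higher and 9.43% as lower. Of the 5, the 3 genes Ly6a, Ly6c1 and Ly6g were called, all as lower. The CPM of the groups did not overlap for the same 3 genes, as for 36.3% of all tested genes in either direction and 18.0% lower in sorafenib cells. Because the genes were chosen on this contrast, nothing is read from these counts. The ranks of these same chosen values are likewise only a description. No tested gene had a lower fitted log2 fold change than Ly6g, while 135 were lower than Ly6c1 and 599 lower than Ly6a. The place of Ly6g rests on 3 sorafenib counts, and nothing is read from these ranks either.

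The genes around the Ly6 cluster were read in their order on chromosome 15. RefSeq places Ly6i, the long non-coding RNA gene Gm41348, Ly6a, Ly6c1, Ly6c2, Ly6a2 and Ly6g in this order among the genes of the count table. Ly6i, a Ly6 relative found on myeloid cells, had 16, 21 and 22 counts in control and 14, 10 and 6 counts in sorafenib libraries, with a log2 fold change of -1.06 ± 0.46 (SE, adjusted p = 0.146, not called). Its CPM did not overlap between groups. Gm41348 had 45, 20 and 20 counts in control and 12, 20 and 12 in sorafenib libraries (log2 fold change -1.03 ± 0.46 SE, adjusted p = 0.160, not called). Ly6e lies on the far side of Ly6i and, as given above, did not separate the groups. Ly6i was called lower under 1 alternative, limma-voom with sample quality weights (adjusted p over the alternatives 0.0347 to 0.418).

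Of 20 other genes of the table that start within 500 kb of one of the 7, 8 were tested, and 2 of these were called, both as higher. Them6, a thioesterase family gene, rose from 5.74 ± 1.09 to 8.72 ± 0.671 CPM (a log2 difference of 0.60 ± 0.16 SE; adjusted p = 0.0227), with 6.57, 6.15 and 4.50 CPM in control and 8.65, 8.08 and 9.42 CPM in sorafenib libraries. Zfp41, a zinc finger gene, rose from 5.49 ± 0.339 to 7.78 ± 0.608 CPM (a log2 difference of 0.50 ± 0.13 SE; adjusted p = 0.0206). Both calls were lost when control replicate 3, sorafenib replicate 1 or sorafenib replicate 3 was left out, and that of Zfp41 also without sorafenib replicate 2 and on FPKM (adjusted p over the alternatives 0.000487 to 0.111 for Them6 and 0.0105 to 0.0977 for Zfp41). Jrk, Arc and the non-coding gene 2810039B14Rik were tested and not called (adjusted p = 0.779, 0.737 and 0.852). The share called was 2 of 8, beside 17.9% of all tested genes.

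**Figure D3:**
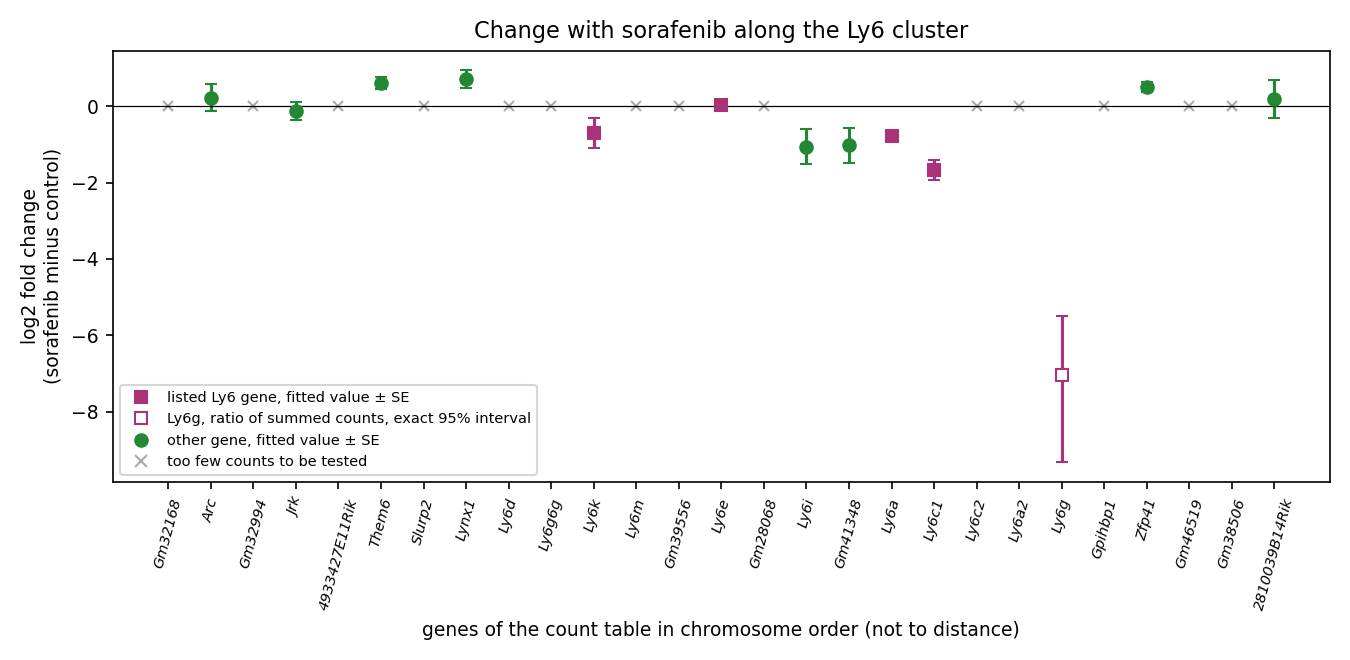
Log2 fold change (sorafenib minus control) of the genes of the count table around the Ly6 cluster, in chromosome order and not to distance: squares are the listed Ly6 genes, circles other genes, bars the SE, crosses genes with too few counts to be tested, and the open square is Ly6g from summed counts with its exact 95% interval. Ly6k, Ly6i, Gm41348, Ly6a, Ly6c1, Ly6g and the flanking gene Jrk lie below 0, Ly6k and Jrk with overlapping groups. Ly6e lies close to 0, and Lynx1, Them6, Zfp41, Arc and 2810039B14Rik lie above 0. Of the genes drawn as circles, only Them6 and Zfp41 were called.

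Other genes with a Ly6 domain were mostly silent in these cells. Of 18 further members of the family in the count table, 12 had at most 30 counts over all 6 libraries, and 4 could be tested. By edgeR 0 of these 4 were called, while 2 had an unadjusted p under 0.05, and DESeq2 called 1 and limma-voom 0. Besides Ly6i, they were Lynx1, Plaur and Ly6g5b. Lynx1, whose product tempers nicotinic acetylcholine receptors, had 2.41, 2.44 and 1.57 CPM in control and 2.73, 3.81 and 3.88 CPM in sorafenib libraries (adjusted p = 0.0659). It was the gene that DESeq2 called, and it was also called, as higher, without control replicate 2, with no filter and with sample quality weights (adjusted p over the alternatives 0.00476 to 0.231). Plaur, the urokinase receptor, had 72, 65 and 54 counts in control and 101, 36 and 90 in sorafenib libraries (adjusted p = 0.817). Ly6g5b, which lies outside the chromosome 15 cluster, had 49, 42 and 46 counts in control and 52, 40 and 46 in sorafenib libraries (adjusted p = 0.878). The complement regulators Cd59a and Cd59b reached at most 12 counts in any library.

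Most Ly6 proteins sit at the surface on a GPI anchor, and the genes that build and attach it were read as a list. Of 32 tested genes for anchor synthesis and remodelling, 1 was called, as lower, beside 17.9% called over all tested genes, and the median log2 fold change was -0.06, beside -0.01 over all tested genes. That gene was Pigo, which adds a phosphoethanolamine to the anchor. It had 36.4, 27.8 and 34.3 CPM in control and 21.7, 25.9 and 24.7 CPM in sorafenib libraries (log2 fold change -0.45 ± 0.11 SE, adjusted p = 0.0210, range over the alternatives 6.28e-05 to 0.247). The groups did not overlap. Leaving out control replicate 1 or 3 or sorafenib replicate 1 or 3 ended its call, as did FPKM and total counts as the only scaling. Piga, the catalytic subunit of the first step, stood at 32.9 ± 4.32 and 29.9 ± 0.944 CPM in control and sorafenib libraries (adjusted p = 0.396). Pigz, a mannosyltransferase gene with few counts, had the lowest log2 fold change of the list, with 1.11 CPM in control and 0.517 CPM in sorafenib libraries (adjusted p = 0.0863, not called). Without control replicate 2, 1 gene of this list was called higher and 5 lower.

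Other GPI-anchored proteins of lymphocytes moved in both directions. Of 17 tested genes, 3 were called higher and 3 lower (over all tested genes, 8.51% were called higher and 9.43% lower). The median log2 fold change was 0.17, beside -0.01 over all tested genes. Cd24a, the heat-stable antigen, fell from 31.3, 50.6 and 43.7 CPM in the control libraries to 23.0, 18.7 and 19.96 CPM in the sorafenib libraries (log2 fold change -1.03 ± 0.16 SE, adjusted p = 0.00145). Izumo1r, which encodes folate receptor 4, fell from 279 ± 8.93 to 191 ± 12.2 CPM (adjusted p = 0.000614). Prnp, the prion protein gene, fell from 152 ± 8.50 to 123 ± 7.01 CPM (adjusted p = 0.0167). Each of the 3 was lower in every sorafenib library than in any control library.

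Among those that rose, Cd55, which encodes the complement decay-accelerating factor, went from 10.97 ± 1.88 to 19.7 ± 0.911 CPM (a log2 difference of 0.84 ± 0.13 SE; adjusted p = 0.00125). Ulbp1, a ligand of the NKG2D receptor, went from 5.43 ± 0.401 to 10.2 ± 0.880 CPM (adjusted p = 0.000805). Art2b, an ADP-ribosyltransferase of T cells, went from 1.25 ± 0.412 to 2.60 ± 0.365 CPM (adjusted p = 0.0256). Without control replicate 2, 5 genes of the list were called higher and 4 lower. The calls of Art2b and Prnp depended on single libraries: that of Art2b was lost when control replicate 1 or 3 or any 1 sorafenib replicate was left out, and that of Prnp when control replicate 3 or sorafenib replicate 1 or 3 was left out (adjusted p over the alternatives up to 0.105 and 0.228). Thy1, the most abundant gene of this list, stood at 467 ± 34.5 and 406 ± 6.05 CPM in control and sorafenib libraries (adjusted p = 0.107) and was called lower without control replicate 1 or 2 and with sample quality weights (adjusted p over the alternatives 0.0103 to 0.329).

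**Figure D4:**
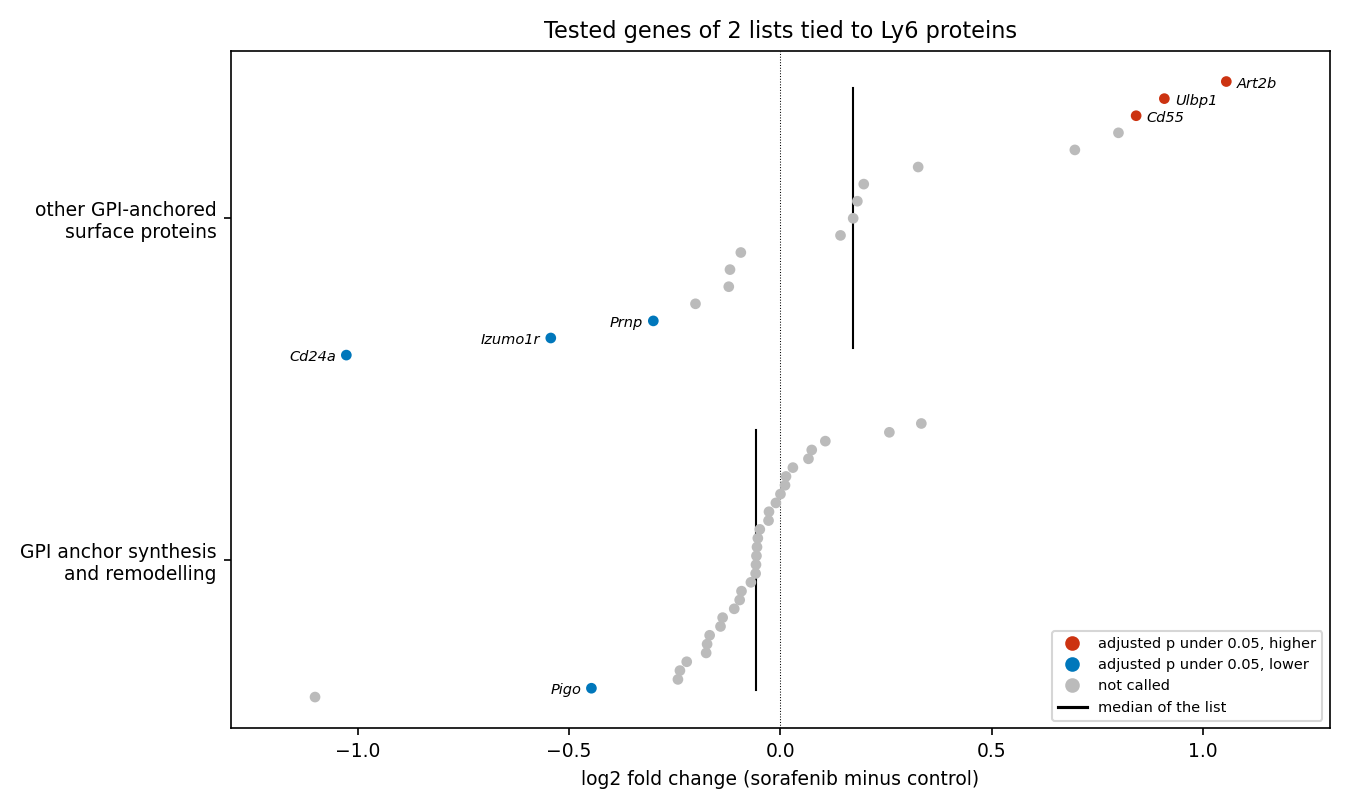
Log2 fold change (sorafenib minus control) of the tested genes of 2 lists: 32 for the GPI anchor and 17 other GPI-anchored surface proteins, with 1 point per gene, called genes coloured and named, and the median of each list as a vertical line. Most anchor genes lie close to 0, Pigo is the called gene among them and the lowest grey point is Pigz, while the anchored proteins spread from Cd24a to Art2b.

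The signalling genes through which interferons and interleukin 27 act on Ly6a, Ly6c and Ly6e also moved both ways. Of 20 tested genes, 2 were called higher and 5 lower (over all tested genes, 8.51% were called higher and 9.43% lower), with a median log2 fold change of 0.01. Irf1, which encodes a transcription factor that interferon induces, rose from 48.5 ± 0.551 to 58.4 ± 1.05 CPM (adjusted p = 0.0184). Whether Irf1 bears on the level of Ly6a was not tested. Stat3, which carries interleukin 6 family signals, fell from 1250.5 ± 29.9 to 958 ± 7.61 CPM (adjusted p = 0.00811). The inhibitors Usp18, Ptpn2 and Socs1 fell by 0.61, 0.34 and 0.28 on the log2 scale, and the kinase gene Jak2 fell by 0.26 (adjusted p = 0.0366, 0.0105, 0.0252 and 0.0336). The receptor genes Ifnar1, Ifnar2, Ifngr1, Ifngr2 and Il27ra were tested and not called (adjusted p = 0.315, 0.700, 0.524, 0.655 and 0.504), and Ifng itself had 79, 62 and 56 counts in control and 24, 46 and 70 in sorafenib libraries (adjusted p = 0.312).

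Leaving out 1 library moved the list's count to between 1 and 3 genes higher and between 0 and 6 lower, with 0 lower without sorafenib replicate 3 and 1 lower without sorafenib replicate 1 or 2. The calls of Irf1 and Stat3 were lost without any 1 of the sorafenib replicates, and that of Irf1 also without control replicate 3 (adjusted p up to 0.0927 and 0.0657). The call of Ptpn2 was lost when sorafenib replicate 2 or 3 was left out (adjusted p up to 0.0639). Usp18 lost its call without control replicate 1 or 3 or sorafenib replicate 1 or 3, Socs1 without control replicate 1 or any 1 sorafenib replicate, and Jak2 without control replicate 3 or any 1 sorafenib replicate (adjusted p up to 0.172, 0.244 and 0.172).

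Since Ly6g protein marks neutrophils, other neutrophil genes were read beside it. Of 22 marker genes, 12 were in the table and 4 could be tested, of which 3 were called, all as lower (9.43% of all tested genes were). Summed over the 12, they stood at 37.2 to 41.6 CPM in the control libraries and 13.0 to 15.6 CPM in the sorafenib libraries. Most of this sum came from Cxcr1, a chemokine receptor gene, which fell from 33.9, 29.7 and 28.6 CPM in control to 9.09, 12.2 and 9.83 CPM in sorafenib libraries (log2 fold change -1.57 ± 0.12 SE, adjusted p = 2.43e-05). Cxcr2, its neighbour in function, fell from 6.38 ± 1.03 to 2.45 ± 0.269 CPM (adjusted p = 0.000468), and the gelatinase gene Mmp9 fell from 1.13 ± 0.239 to 0.343 ± 0.131 CPM (adjusted p = 0.0142). The Mmp9 call was lost without control replicate 3 and without sorafenib replicate 2 or 3 (adjusted p up to 0.0764). Padi4, too low to be tested, went the other way, with 5, 7 and 3 counts in control and 18, 15 and 10 in sorafenib libraries.

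Of the granule genes on this list, Ltf, Ngp and Elane were at or near 0 in both groups, and Mpo and Prtn3 were low. Mmp9 is given above. Prtn3 had 14, 3 and 1 counts in control and 1, 3 and 5 counts in sorafenib libraries. Mpo, which encodes myeloperoxidase, had 11, 5 and 14 counts in control and 20, 10 and 8 counts in sorafenib libraries (adjusted p = 0.802). Ltf had 1 count, Ngp 2 and Elane 1 over all 6 libraries. S100a8, S100a9 and Csf3r were looked for and had no row under these symbols in the count table, so no value is given. No row of the table had a count of 0 in all libraries, so a gene without any counts may have no row. Whether these genes lacked counts was not tested. In each control library Ly6g, at 120 counts or more, was counted more often than Mmp9, Mpo, Prtn3, Ltf, Ngp or Elane. It was counted less often than Cxcr1, with 1265, 1023 and 1074 control counts, and Cxcr2, with 219, 197 and 284. Which cells the Ly6g counts came from was not tested.

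**Figure D5:**
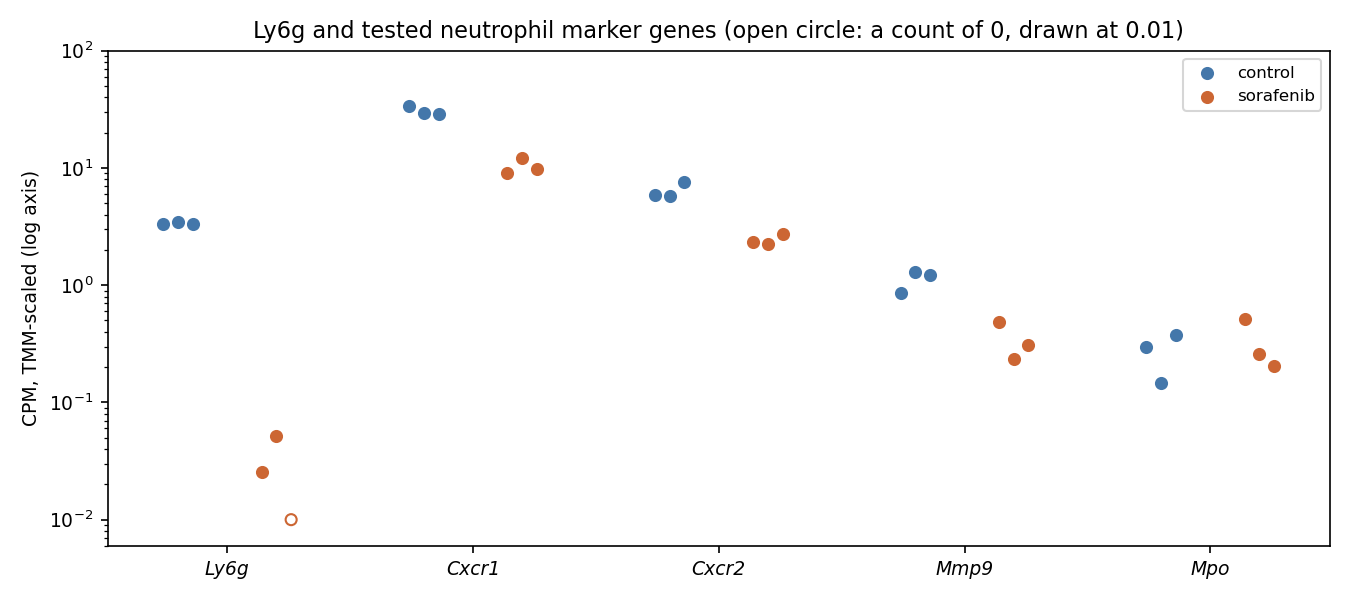
CPM (TMM-scaled, log axis) of Ly6g and the 4 tested neutrophil marker genes, with 1 point per library and an open circle for a count of 0. Ly6g, Cxcr1, Cxcr2 and Mmp9 separate the groups, and Mpo overlaps.

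Markers of other cell types that can carry Ly6 proteins were read in the same way, and their part in the values above was not tested. The counts of calls that follow stand beside 17.9% called over all tested genes, 8.51% higher and 9.43% lower. Of 5 tested monocyte and macrophage genes 1 was called: Ccr2 fell from 3.68 ± 0.167 to 1.29 ± 0.684 CPM (adjusted p = 0.00789), while Csf1r had 0, 0 and 0 counts in control and 2, 0 and 1 in sorafenib libraries. The other monocyte genes did not follow Ccr2, and the median log2 fold change of the list was 0.61. Adgre1, Fcgr3 and Cx3cr1 had log2 fold changes of 1.08, 0.99 and 0.60 with groups that did not overlap (adjusted p = 0.120, 0.126 and 0.314, not called), Cd68 had -0.06 with overlapping groups (adjusted p = 0.884), and Itgam, too low to be tested, had 5, 5 and 2 counts in control and 9, 12 and 18 in sorafenib libraries. Of 8 tested B cell and progenitor genes 6 were called higher and 1 lower. Pax5, Cd22 and Cd79a rose to 3.30, 3.35 and 5.05 CPM from 0.799, 1.01 and 2.13 CPM, while Ebf1 fell from 19.6 ± 0.946 to 5.72 ± 0.896 CPM. The call of Cd79a was lost when control replicate 1 or 3 or any 1 sorafenib replicate was left out (adjusted p up to 0.105). Of 5 tested plasmacytoid dendritic cell genes 2 were called higher and 1 lower; Spib rose from 0.365 to 2.43 CPM and Irf8 fell from 405 to 304 CPM. The higher count was 1 when control replicate 1 or any 1 sorafenib replicate was left out, because Cox6a2, with 14, 25 and 2 counts in control and 52, 60 and 62 in sorafenib libraries, lost its call (adjusted p = 0.0384, up to 0.129 over the alternatives). Of 8 NK and cytotoxic cell genes 1 was called higher and 4 lower, the latter being Gzma, Fasl, Gzmb and Prf1, which fell by 3.56, 2.86, 2.06 and 1.99 on the log2 scale; the one called higher was lost without sorafenib replicate 1. Of 14 T cell genes 1 was called higher and 7 lower. Il2ra, Cd2 and Cd28 fell by 0.68, 0.59 and 0.55 on the log2 scale, and the gene called higher was Il9. Without control replicate 2, 2 endothelial genes were called lower, and without sorafenib replicate 3, 4 T cell genes were. Of 3 tested endothelial and stromal genes, which belong to cell types rich in Ly6a and Ly6c1 protein, 1 was called: Pecam1 fell from 50.8 ± 1.07 to 27.1 ± 0.758 CPM (adjusted p = 2.7e-05), while Cdh5 had at most 2 counts and Dcn at most 1 in any library.

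The genes whose CPM followed that of Ly6a most closely over the 6 libraries were Casp6, the executioner protease caspase 6, Reep1 and Ccne2, which encodes cyclin E2 (Pearson r of log2 values 0.999, 0.998 and 0.997). They are 3 of 8852 genes ranked, of which 743 had an r of at least 0.9, and all 6 libraries share the split into control and sorafenib. Casp6 stood at 106 ± 11.4 and 60.03 ± 4.84 CPM in control and sorafenib libraries. For Ly6e the closest were Baiap2, Decr2 and Smarcal1 (r of 0.949, 0.948 and 0.931), and 11 genes reached an r of at least 0.9. These r are a description of 6 libraries. The other 5 genes were below the 5 CPM set for this ranking.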

How the data were processed

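RNA-seq libraries of mouse Th9 cells, 3 control and 3 sorafenib, were grouped by their titles. The GRCm39 build and the tools HISAT2, HTSeq, fastp, DESeq2 and R 3.2.0 are named, without their roles, per the submitters' processing notes; the sources used here give neither the strand setting nor how multiply matching reads were handled. Both tables deposited by the authors are per gene: raw whole counts, and FPKM values, which equal the count scaled to gene length and to the column's total count.

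The filterByExpr rule left 13255 of 21233 genes. Counts were tested with edgeR 4.0.16 (TMM factors, robust quasi-likelihood F test with a group term and 4 residual degrees of freedom) in R 4.3.3, with Benjamini-Hochberg adjustment over all tested genes and a threshold of 0.05. Standard errors come from the F statistic. The 7 genes and all lists were chosen with earlier results of these data known; no p-value is given for the 7. Lists are described by counts of calls and medians, with no list test; some genes that the naming rule covers are not reported here. Named genes are the 7, every tested further Ly6-domain gene, tested neighbours within 500 kb by RefSeq order, called list genes with the largest changes at a mean of at least 1 CPM (up to 6, or 4 for markers), fixed defining markers, and the 3 closest genes by Pearson r to each of the 7 with a mean of at least 5 CPM, ranked where mean log2 CPM reached 3. Lists cover the GPI anchor, GPI-anchored proteins, interferon signalling and markers of neutrophils, monocytes, B cells, plasmacytoid dendritic, NK, endothelial and T cells.

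Alternatives were DESeq2 1.42.0, limma-voom and limma-trend (limma 3.58.1) on log2(FPKM + 1) and log2(FPKM + 0.1), other scaling factors, other filters, a replicate block and each library left out; limma-voom with sample quality weights was chosen after seeing the data. The fits were tested on simulated data. Promoter windows are RefSeq's for GRCm38.p6. The libraries' depth made 3 counts equal to 0.0766 to 0.0871 CPM.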

Additional observations from a re-analysis of the deposited data

How the results depend on the processing

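Ly6a, Ly6c1 and Ly6g were lower in sorafenib cells under all 18 alternatives, with log2 fold changes from -0.85 to -0.70 for Ly6a from -1.90 to -1.04 for Ly6c1 and from -7.71 to -2.14 for Ly6g; adding 1 to FPKM shrinks the change of low genes such as Ly6c1 and Ly6g. Ly6e never exceeded 0.10 in size, and its sign turned without control replicate 1. Over all genes, 2378 were called, 1128 higher and 1250 lower. Leaving out 1 library gave 1243 to 4325 calls in all, 559 to 2035 higher and 684 to 2290 lower, the most without control replicate 2 and the fewest without sorafenib replicate 3. Limma-voom with sample quality weights called 4328 genes, 2055 higher and 2273 lower. On FPKM, limma-trend called 1423 genes with 1 added, 520 of them lower, and 1546 with 0.1 added, 575 of them lower; with 1 added and a mean FPKM of at least 0.5, 744 were lower. Total counts only called 826 lower and 1496 higher, 64.4% of calls being higher, against 47.4% with TMM.

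The replicate block gave 2139 calls, 1031 higher and 1108 lower. With it the interferon list had 3 lower calls instead of 5, as the Jak2 log2 fold change and the Socs1 log2 fold change passed the threshold no longer (adjusted p = 0.0897 and 0.0503). The labels' numbers were not taken to pair the samples: deviations of same-numbered libraries correlated at -0.107, 0.13 and 0.127, and 2 of 3 control libraries correlated best with their own number. Low counts limit Ly6c2, Ly6d and the sorafenib value of Ly6g.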
